A study of Mus musculus with 384 samples.

Results

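The TGF-beta ligands, their receptors and the latent TGF-beta binding proteins were followed in single cells sorted from the mouse lung. The 10 genes (Tgfb1, Tgfb2, Tgfb3, Tgfbr1, Tgfbr2, Tgfbr3, Ltbp1, Ltbp2, Ltbp3 and Ltbp4) were chosen by name, out of 23422 genes in the count table and 22276 in the filtered expression table, and each of the 10 was present in both. Cells negative for CD31, CD45, CD11b and TER119 were sorted into 380 single wells and 4 pool wells, 384 in all, and amplified by a full-length SmartSeq2 protocol. The authors kept 182 of the single cells after their quality filter. The Lgr5 line was Lgr5-IRES-CreERT2 crossed to a Cre-dependent tdTomato reporter at Rosa26 and induced with tamoxifen, so that a Tom+ cell carries a lineage label. The Lgr6 line was Lgr6-EGFP-IRES-CreERT2, a reporter whose GFP is made while Lgr6 is being transcribed. Each line had 2 mice, for which the labels give an age of 7 to 10 weeks in most experiments. The mouse was the replicate and cells were not. EpCAM is not part of the gate in the labels, and epithelial cells could enter the sort.

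TGF-beta ligands are secreted in a latent form, held by their own propeptide, and most of that complex is bound to a latent TGF-beta binding protein that anchors it in the matrix. Once released, a ligand binds the type II receptor, which recruits and phosphorylates the type I receptor, and SMAD proteins carry the signal to the nucleus. In the lung the pathway is known for its part in branching, alveolar septation, smooth muscle differentiation and fibrosis.

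The depth differed between mice. The kept cells numbered 29 and 28 in Lgr5 mouse 1 and 2, and 50 and 75 in Lgr6 mouse 1 and 2. Their summed counts were 9874249 and 13198680 in the Lgr5 line and 28875278 and 124650544 in the Lgr6 line. The median kept cell had 263129 and 272729 counts in the Lgr5 mice, 332588 in Lgr6 mouse 1 and 1537593 in Lgr6 mouse 2, which was the deepest of the 4. Rn45s, the precursor of ribosomal RNA, took 26.7% and 25.0% of the counts in the Lgr5 mice, against 32.3% and 37.5% in the Lgr6 mice. Reads were amplified by PCR without molecular identifiers. The intervals given here are binomial intervals on numbers of cells, taken as independent, and do not cover the spread between mice.

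Cells were also divided by Acta2, the smooth muscle actin, at a log2(TPM + 1) of 11. This left 66 Acta2-high and 116 Acta2-lower cells. The Acta2-high cells numbered 27 and 38 in the Lgr6 mice, 1 in Lgr5 mouse 1 and 0 in Lgr5 mouse 2, so that the classes could be compared only within the 2 Lgr6 mice. The classes are ranges of 1 gene and not cell types. Within 0.5 of the threshold lay 9 cells, 3 above and 6 below it. The lowest value inside was 11.03 in Lgr6 mouse 1 and 11.13 in Lgr6 mouse 2, and the highest value outside was 10.65 and 10.97. Acta2 itself chose the classes and was not tested.

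Markers of other cell types differed between the groups. The 8 epithelial markers summed to 52610 and 35420 CPM (counts scaled to the same library total) in the Lgr5 mice, against 1865 and 13970 in the Lgr6 mice, led by Sftpc, the surfactant protein of alveolar type II cells. In the Lgr6 mice, the Acta2-lower cells held 4775 and 28570 CPM of them and the Acta2-high cells 14.6 and 11.9, with Epcam at 0 in the Acta2-high cells of both mice. The 8 smooth muscle markers, of which Acta2 itself is 1, summed to 22650 and 24380 CPM in the Acta2-high cells of the Lgr6 mice and to 1110 and 1749 in their Acta2-lower cells, with all 8 detected in each. The 7 mesenchymal markers were all detected in each mouse, between 3622 and 7264 CPM, with Col3a1 as the most abundant. The authors' filter set upper limits on the TPM of Pecam1 and Ptprc, so the 0 of Pecam1 in all 4 mice followed a selection on that gene, and 1 and 10 Ptprc counts remained in Lgr5 mouse 2 and Lgr6 mouse 2. The 7 genes of the endothelial list summed to between 1.11 and 85.0 CPM, led by Kdr in 3 mice and by Cldn5 in Lgr5 mouse 1. The immune list summed to between 42.3 and 496.9 CPM, led by Lyz1, with Cd3e at 0 in each mouse. The 9 erythroid genes in the table summed to 318.9 and 428.5 CPM in the Lgr5 mice, led by Hbb-bh1, and to 0.104 and 2.16 in the Lgr6 mice. Mast cell markers, led by Kit, summed to between 13.8 and 51.5 CPM with Mcpt4, Cma1 and Tpsb2 at 0, and mesothelial markers to at most 3.64 CPM. The part of these cells in the differences below was not tested beyond fits without the 18 kept cells that had at least 3 of the 8 epithelial markers at a log2(TPM + 1) of 5 or more, none of which was Acta2-high.

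On the TPM scale, which corrects a transcript's share of the library for its length, the mean over the 4 mice was highest for Ltbp4 at 515.7 ± 80.7 (SD, n = 4). Tgfb3 followed at 202.2 ± 66.2, Tgfbr3 at 189.7 ± 60.7 and Ltbp1 at 150.5 ± 57.0, and these 3 overlapped within their SD. Tgfbr2 (79.97 ± 21.8) and Ltbp3 (75.93 ± 34.4) came next and also overlapped. Tgfb2 had 22.7 ± 13.8, Tgfbr1 16.8 ± 5.11 and Ltbp2 10.3 ± 8.77, again overlapping. Tgfb1 was last at 0.246 ± 0.361 TPM. The order of cells with at least 1 count was close to this, from 163 of 182 cells for Ltbp4 and for Tgfbr3 to 3 for Tgfb1.

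**Figure D1:**
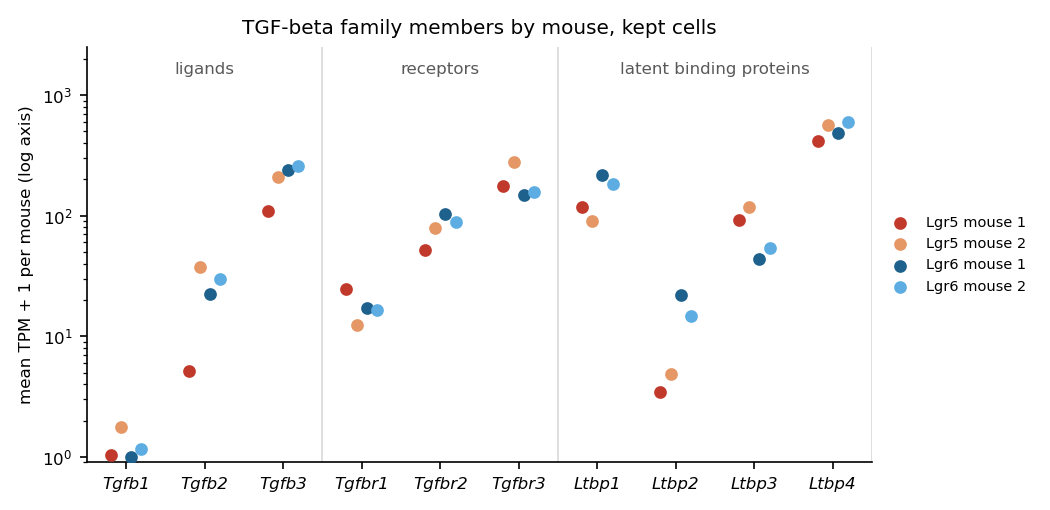
Mean TPM + 1 of the kept cells of each mouse on a log axis, 1 point per mouse, for the ligands, receptors and latent binding proteins. Ltbp2 lies between 2.46 and 3.85 TPM in the Lgr5 mice and between 13.9 and 21.0 TPM in the Lgr6 mice, and Ltbp4 lies above 400 TPM in each mouse.

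Among the ligands, Tgfb1 had almost no counts. It lies at chr7:25687002-25705077 (GRCm38, the build mm10, with gene positions from GENCODE). Lgr5 mouse 1 and 2 had a mean of 0.0386 and 0.776 TPM and Lgr6 mouse 1 and 2 of 0 and 0.168, from 1, 43, 0 and 33 counts. Each mouse with a count had it in 1 cell, and the 0 of 50 cells in Lgr6 mouse 1 allows a share of up to 7.11% by the exact 95% interval. Tgfb1 did not pass the filter on low counts and had no test. Over the 380 single wells, the 75 wells with a TPM of at least 1 of Ptprc, the gene of the leukocyte antigen CD45, held 87 Tgfb1 counts in 22 wells, a mean of 2.44 TPM. Whether the quantification counted all Tgfb1 reads was not tested, so the low values are not a measure of absence.

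Tgfb2, at chr1:186622792-186705989, was detected in 58 of 182 cells (31.9%). By mouse the share ran from 13.8% in Lgr5 mouse 1 to 39.3% in Lgr5 mouse 2. The mean level was 4.19 TPM in Lgr5 mouse 1, 36.4 in Lgr5 mouse 2, and 21.4 and 28.7 in the pair of Lgr6 mice. The lines overlapped, since the lowest and the highest mouse were both of the Lgr5 line. A single cell gave 90.1% of the Tgfb2 counts of Lgr5 mouse 2. Over the Lgr6 mice, Acta2-high cells had 33.1 and 31.7 TPM and Acta2-lower cells 7.77 and 25.7. The mean TPM of the high cells was above that of the lower cells in both mice, by different amounts. The share of cells with a count followed it in only 1 of them, at 37.0% of high against 26.1% of lower cells in Lgr6 mouse 1 and 31.6% against 40.5% in Lgr6 mouse 2. With each cell thinned to 99000 reads the shares were 35.7% against 17.9% and 23.9% against 21.1%, so the order in Lgr6 mouse 2 differed between the unthinned and thinned shares.

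Tgfb3, at chr12:86056745-86079041, was the main ligand transcript, with counts in 116 of 182 cells (63.7%, 56.3 to 70.7). It had 108 and 208 TPM in Lgr5 mouse 1 and 2, against 236 and 257 TPM in Lgr6 mouse 1 and 2. Both Lgr6 mice were above both Lgr5 mice on this scale, but the lines overlapped in CPM of summed counts (171 and 500.2 in the Lgr5 line, 366 and 314 in the Lgr6 line), where 1 cell gave 76.2% of the counts of Lgr5 mouse 2. The Acta2-high cells had 273 TPM and the lower cells 193 in Lgr6 mouse 1, and both classes had 257 in Lgr6 mouse 2. The shares of cells with a count were 85.2% and 78.9% in the Acta2-high cells of the 2 mice and 52.2% and 56.8% in the lower cells. With each cell thinned to 99000 reads these shares were 82.4%, 76.8%, 46.8% and 50.4%. More Acta2-high than lower cells had a Tgfb3 count in both mice at either depth, while the mean TPM was higher in 1 mouse only. In CPM of summed counts the Acta2-high cells were higher in both, at 387 against 333 and 339.8 against 288.

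At least 1 of Tgfb2 and Tgfb3 was detected in 141 of 182 cells, and both in 33. In the Acta2-high cells 27 of 27 and 33 of 38 cells had 1 or both, and in the lower cells 15 of 23 and 29 of 37. No test over cells was made, because cells of a mouse are not replicates.

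Among the receptors, Tgfbr1, the type I receptor at chr4:47353222-47414931, had the lowest level. The 2 Lgr5 mice had 23.7 and 11.5 TPM, and the 2 Lgr6 mice 16.2 and 15.6. The Lgr6 values lay between those of the Lgr5 mice. In the Acta2-high cells of the Lgr6 mice it was 15.4 and 11.1 TPM, and in the lower cells 17.1 and 20.2. The direction differed by scale, since the CPM of summed counts was 71.5 in the high and 10.7 in the lower cells of Lgr6 mouse 1.

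Tgfbr2, the type II receptor that binds ligand first, lies at chr9:116084293-116175360. Lgr5 mouse 1 and 2 had 50.9 and 78.4 TPM, below the 103 and 88.1 TPM of Lgr6 mouse 1 and 2, although the lines overlapped in CPM of summed counts (82.4 and 225.9 against 328.6 and 185). In the Acta2-high cells of the Lgr6 mice it was 71.7 and 48.0 TPM, and in the lower cells 139 and 129. The lower cells were thus above the Acta2-high cells in both mice, and the 4 values of this comparison did not overlap. By comparison, 25.9% of all genes tested were lower in the Acta2-high cells of both mice. The shares of cells with a count were closer, at 48.15% and 36.84% of high against 56.52% and 48.65% of lower cells. In thinned cells they were 50.14% and 35.52% against 43.75% and 44.71%, so the order in Lgr6 mouse 1 was reversed. The log2 fold change of the high against the lower cells was -1.68 (SE 0.466; edgeR quasi-likelihood test, p = 0.0158, Benjamini-Hochberg adjusted p = 0.603). It was -0.87 in thinned cells and -0.72 at an Acta2 threshold of 9 with all 4 mice. A single cell gave 70.4% of the counts in the lower cells of Lgr6 mouse 1. Among Acta2-lower cells the Tgfbr2 level was 52.7 and 78.4 TPM in the Lgr5 mice against 139 and 129 in the Lgr6 mice, also without overlap (log2 fold change -1.55, SE 0.672, edgeR adjusted p = 0.641 after Benjamini-Hochberg adjustment). This value was -0.51 in thinned cells, -1.02 without Lgr5 mouse 1 or without Lgr6 mouse 1, and -2.31 without Lgr5 mouse 2, with the same sign in all 16 alternatives.

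The Acta2-lower cells were mixed in Tgfbr2. Those with Pdgfra, a fibroblast marker, and without epithelial marks (4 and 8 cells in the Lgr6 mice) had a mean of 457 and 321 TPM. Those with neither (15 and 24 cells) had 77.0 and 87.9, and the epithelial-marked cells (4 and 5) had 52.3 and 20.8. The Pdgfra-positive cells were the highest of the 3 kinds in both mice. This division was chosen after the values were seen and was not tested.

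Tgfbr3, or betaglycan, presents ligand to the type II receptor, and lies at chr5:107106570-107289629. Its level was 176 and 279 TPM in Lgr5 mouse 1 and 2, against 149 and 155 TPM in the Lgr6 mice. Both Lgr5 mice were above both Lgr6 mice, also in CPM (log2 fold change 1.001, SE 0.488; edgeR quasi-likelihood test, Benjamini-Hochberg adjusted p = 0.620). The size of this value rested on Lgr5 mouse 2, since it was 0.38 without that mouse, against 1.47 without Lgr5 mouse 1, and limma on mean TPM gave 0.55. Within the Lgr6 mice the Acta2-high cells had 131 and 161 TPM and the lower cells 170 and 148, in opposite directions in the 2 mice. Of the receptors it was the most widely detected. Tgfbr1 and Tgfbr2 together were detected in 31 of 182 cells (17.0%), and Tgfbr2 with Tgfbr3 in 71. By mouse, the share with both Tgfbr1 and Tgfbr2 ran from 13.8% in Lgr5 mouse 1 to 18.7% in Lgr6 mouse 2.

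Among the latent binding proteins, Ltbp1, at chr17:75005568-75392512, had counts in 150 of 182 cells. The Lgr5 mice had 118 and 89.8 TPM, against 214 and 180.4 TPM in Lgr6 mouse 1 and 2. Both Lgr6 mice were higher (log2 fold change of the Lgr5 against the Lgr6 line -0.58, SE 0.360, edgeR adjusted p = 0.702 after Benjamini-Hochberg adjustment), with -0.31 without epithelial-marked cells and -0.94 with limma at a pseudocount of 0.1. The Acta2-high cells had 257 and 263 TPM and the lower cells 164 and 95.6, again higher in both mice on this scale. The log2 fold change between the classes was 0.67 (SE 0.460, edgeR adjusted p = 0.967 after Benjamini-Hochberg adjustment). It was 1.33 without Lgr6 mouse 1 and -0.024 without Lgr6 mouse 2, so the fitted direction rested on Lgr6 mouse 2. In Lgr6 mouse 1 the summed counts were closer, at 683 and 623 CPM, than in Lgr6 mouse 2, at 883 and 339. Ltbp1 had a count in 27 of 27 and 36 of 38 Acta2-high cells and in 19 of 23 and 26 of 37 lower cells. Among the Acta2-lower cells alone the lines overlapped, with 119 and 89.8 TPM in the Lgr5 mice, against 164 and 95.6 in the Lgr6 mice.

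Ltbp2, at chr12:84783212-84876532, had the largest log2 fold changes of the members in the class comparison. Its exons overlap those of D030025P21Rik, and the library is not stranded. Reads that lie in the shared stretch cannot be told apart, and the Ltbp2 values are uncertain to that extent. The share of reads from that stretch was not measured. The same limit holds for any member wherever annotated exons overlap. Mean levels were 2.46 and 3.85 TPM for Lgr5 mouse 1 and 2, against 21.0 and 13.9 TPM for Lgr6 mouse 1 and 2. The lines did not overlap. In the Lgr6 mice, Acta2-high cells had 37.6 and 26.5 TPM and Acta2-lower cells 1.57 and 0.895. The high cells were above the lower cells in both mice, but few cells carried the signal. A count was seen in 6 of 27 and 13 of 38 Acta2-high cells and in 1 of 23 and 2 of 37 lower cells. The cell with the most counts gave 41.4% and 38.7% of the Ltbp2 counts of the Acta2-high cells. Of the 27 cells with Ltbp2, 25 also had Ltbp1.

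The tests of Ltbp2 depended on the tool. Between the classes the log2 fold change was 5.31 (SE 1.18; edgeR quasi-likelihood test, p = 0.00659, Benjamini-Hochberg adjusted p = 0.603). DESeq2 gave 5.28 with a Benjamini-Hochberg adjusted p of 2.26e-05 on the genes that passed the filter on low counts. On all genes with a count DESeq2 gave a Benjamini-Hochberg adjusted p of 0.000711. Over the alternatives the adjusted p ranged from 2.26e-05 to 1, all by Benjamini-Hochberg adjustment in edgeR, DESeq2 or limma. With the Acta2 threshold at 12 the log2 fold change was 2.30. At a threshold of 9 it was 6.28 in the same 2 Lgr6 mice, and 2.32 in the 4 mice that then had enough cells of both classes. Between the lines the log2 fold change was -2.91 (SE 0.922; edgeR quasi-likelihood test, Benjamini-Hochberg adjusted p = 0.380). DESeq2 put this comparison on either side of the threshold, with a Benjamini-Hochberg adjusted p of 0.0276 on the genes that passed the filter and of 0.0509 on all genes with a count. The filtered form was set after the other had been run and seen. Over the alternatives for the lines the adjusted p by edgeR, DESeq2 or limma ran from 0.0276 to 0.987. Among Acta2-lower cells, Ltbp2 had 2.55 and 3.85 TPM in the Lgr5 mice, against 1.57 and 0.895 in the Lgr6 mice. The Lgr6 line was the lower of the 2 there, but a count was seen in only 2 and 3 cells against 1 and 2. The log2 fold change was 1.41 (SE 1.875), and it turned to -2.17 with the Acta2 threshold at 12.

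**Figure D2:**
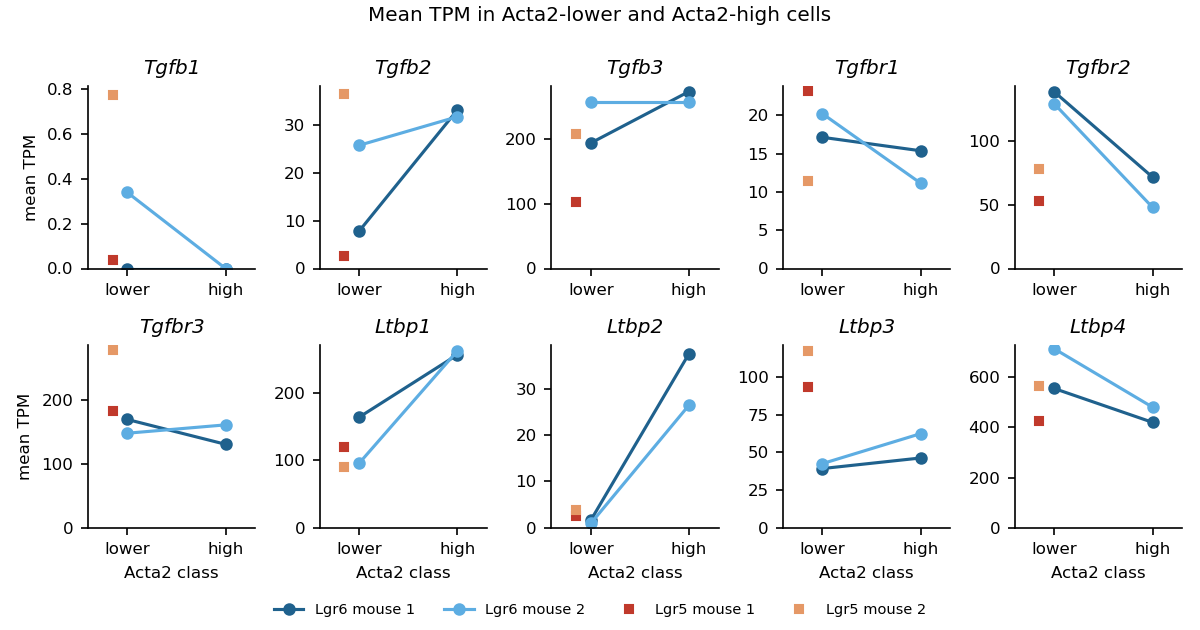
Mean TPM of each gene in Acta2-lower and Acta2-high cells, with lines joining the classes of each Lgr6 mouse and squares for the Acta2-lower cells of the Lgr5 mice. Ltbp2 goes from 1.57 and 0.895 TPM in the lower cells to 37.6 and 26.5 in the high cells, and Tgfbr2 from 139 and 129 to 71.7 and 48.0.

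Ltbp3 lies at chr19:5740904-5758532. Lgr5 mouse 1 and 2 held 90.3 and 118 TPM, and Lgr6 mouse 1 and 2 held 43.1 and 52.7. Both Lgr5 mice were higher (log2 fold change 0.75; edgeR quasi-likelihood test, Benjamini-Hochberg adjusted p = 0.711), with 1.48 in thinned cells. In the Lgr6 mice the Acta2-high cells had 46.4 and 62.6 TPM and the lower cells 39.3 and 42.6. The difference between the lines was also seen in Acta2-lower cells, at 93.5 and 118 against 39.3 and 42.6 TPM (log2 fold change 1.29, edgeR adjusted p = 0.811 after Benjamini-Hochberg adjustment), with 1.96 at an Acta2 threshold of 9.

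Ltbp4, at chr7:27305136-27337692, was the most abundant member in each mouse. It reached 418 and 565 TPM in Lgr5 mouse 1 and 2, and 483 and 596 TPM in the Lgr6 mice, so that the lines overlapped. The Acta2-high cells of the Lgr6 mice had 421 and 481 TPM and the lower cells 556 and 715. The lower cells were above the high cells in both mice (log2 fold change -0.51, SE 0.295, edgeR adjusted p = 0.919 after Benjamini-Hochberg adjustment), with -0.32 in thinned cells and -0.26 at an Acta2 threshold of 9 with all 4 mice. Among the Acta2-lower cells, epithelial-marked cells had 443 and 23.4 TPM in the Lgr5 mice, against 87.7 and 0 in the Lgr6 mice, while cells with neither mark had 413, 626.4, 660 and 788. The epithelial-marked cells were lower than these in 3 of the 4 mice.

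**Figure D3:**
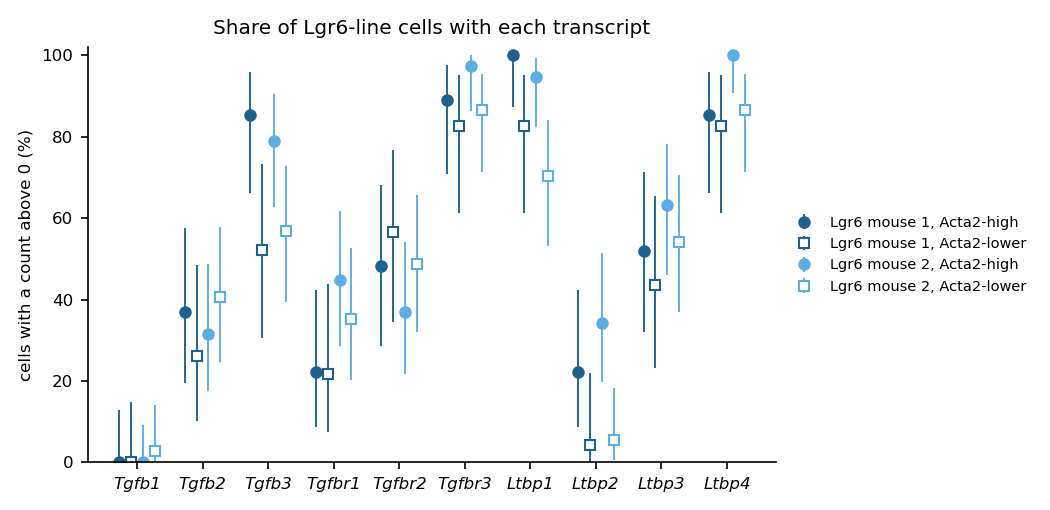
Share of cells of each Lgr6 mouse with a count above 0, filled for Acta2-high and open for Acta2-lower cells. Bars are exact 95% intervals on numbers of cells, taken as independent, and do not cover the spread between mice. Ltbp2 was detected in 22.2% and 34.2% of the Acta2-high cells and in 4.35% and 5.41% of the lower cells.

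Over all genes edgeR made few calls and DESeq2 more. Between the lines, edgeR tested 14086 genes, including 9 of the 10 members, and called 0 (0.0%), with 1312 at an unadjusted p under 0.05. Of the members 0 were called by edgeR, with 1 at an unadjusted p under 0.05, which was Ltbp2. DESeq2 called 564 of the same genes (4.0%), of which 1 was a member (Ltbp2), and 963 on all genes with a count, of which 0 were members. limma on mean TPM called 0 members with either pseudocount, with 3 at an unadjusted p under 0.05. The mean TPM of the 2 lines did not overlap for 2 members that were higher in the Lgr5 line (Tgfbr3 and Ltbp3), against 17.4% of all genes tested, and for 4 that were lower (Tgfb3, Tgfbr2, Ltbp1 and Ltbp2), against 30.6%. These counts out of 9 lie near the shares of all genes and are not a result about the members, and the same holds for the counts in the other comparisons.

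Between the Acta2 classes, edgeR tested 13528 genes and called 2 (0.0148%), Sftpa1 and Sftpc, both lower in the Acta2-high cells. Of all genes tested, 1038 had an unadjusted p under 0.05 by edgeR. None of the 9 members tested was called by edgeR (0 called, with 2 at an unadjusted p under 0.05, Ltbp2 and Tgfbr2). DESeq2 called 943 genes (7.89%), of the 11954 with an adjusted p, 1 of them a member, Ltbp2, and limma called 0 members. In mean TPM, 4 members were higher in the Acta2-high cells of both mice (Tgfb2, Ltbp1, Ltbp2 and Ltbp3), against 29.5% of all genes, and 3 were lower (Tgfbr1, Tgfbr2 and Ltbp4), against 25.9%. For Tgfbr1 the fitted log2 fold change on counts was 1.22, opposite to its TPM, and it was -0.18 without Lgr6 mouse 1 and 2.58 without Lgr6 mouse 2. Without the epithelial-marked cells the log2 fold changes were 5.17 for Ltbp2, -1.77 for Tgfbr2 and 0.54 for Ltbp1, and the 2 calls of all genes became 0.

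Among Acta2-lower cells, edgeR tested 12958 genes between the lines and called 0 (0.0%), with 976 at an unadjusted p under 0.05. The members gave 0 calls by edgeR, with 1 at an unadjusted p under 0.05 (Tgfbr2), 0 by limma and 0 by DESeq2, which called 404 genes (3.31%) of the 12204 with an adjusted p. The groups did not overlap for 3 members higher in the Lgr5 line (Tgfbr3, Ltbp2 and Ltbp3), against 19.2% of all genes, and for 1 that was lower (Tgfbr2), against 23.5%. A p above the threshold does not show that the levels were equal.

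**Figure D4:**
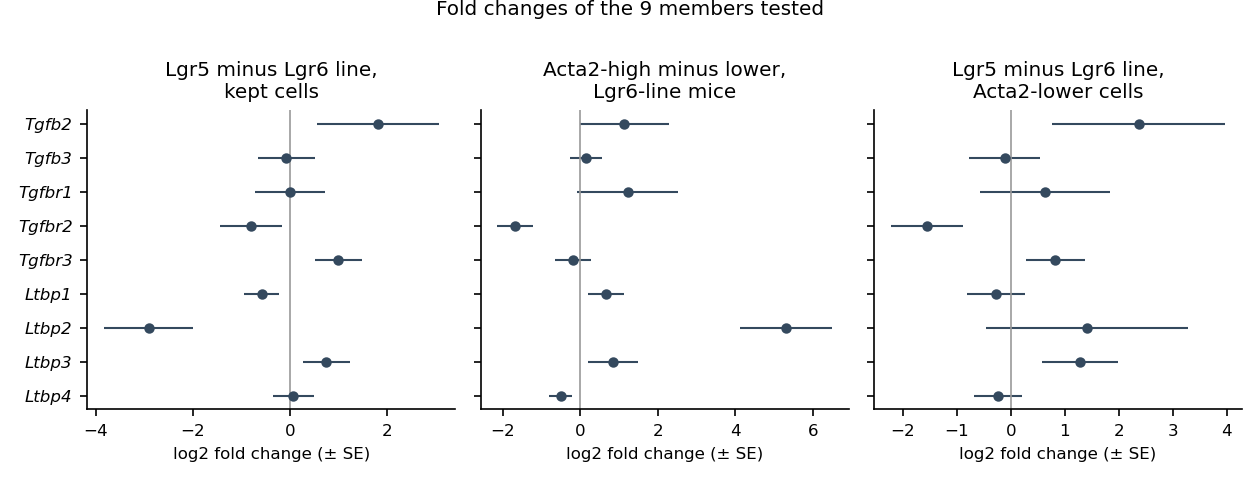
Log2 fold changes of the 9 members tested with bars of 1 SE, from the edgeR fits between the lines, between the Acta2 classes of the Lgr6 mice and between the lines in Acta2-lower cells. Ltbp2 is at -2.91, 5.31 and 1.41, and Tgfbr2 at -0.80, -1.68 and -1.55.

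In single cells the members were spread unevenly on either side of the Acta2 threshold. Ltbp1 was seen in nearly each Acta2-high cell, and Ltbp2 in a minority. The mean of the Spearman correlations with Acta2 within each of the 4 mice was 0.29 for Ltbp1, 0.11 for Tgfb3, -0.0094 for Tgfbr2 and -0.070 for Ltbp4, as descriptions over cells that share library and depth. For Tgfb3, Tgfbr2 and Ltbp4 these means hide opposite signs. Lgr5 mouse 2 had -0.23 for Tgfb3, 0.43 for Tgfbr2 and 0.34 for Ltbp4, while the other 3 mice had 0.17 to 0.31, -0.17 to -0.13 and -0.23 to -0.19.

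**Figure D5:**
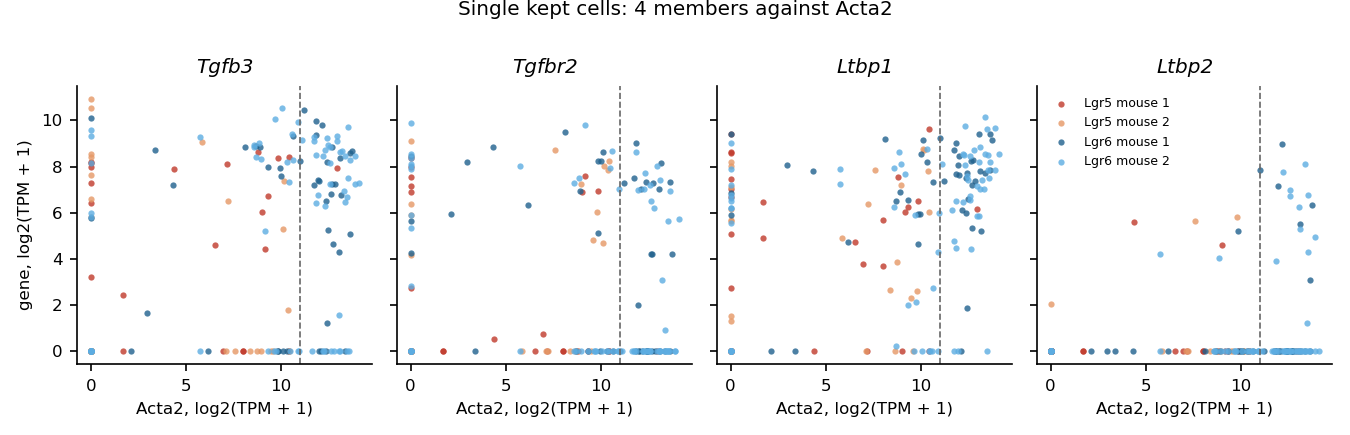
Tgfb3, Tgfbr2, Ltbp1 and Ltbp2 against Acta2 in single kept cells, both as log2(TPM + 1), colored by mouse, with the threshold of 11 as a dashed line. Cells with Ltbp2 lie mostly to the right of the line, in 6 of 27 and 13 of 38 Acta2-high cells against 1 of 23 and 2 of 37 lower cells of the Lgr6 mice.

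The genes most like a member, by the mean of these within-mouse correlations over 5629 genes, were Hhip (0.50), Enpp2 (0.48) and Malat1 (0.46) for Tgfbr3. For Ltbp4 they were Gsn (0.49), Plac9b (0.43) and Col3a1 (0.43), and for Ltbp1 Sparcl1 (0.43), Myl6 (0.39) and Sparc (0.38). Weaker values were found for Tgfbr2 (Cd82 0.39, Pddc1 0.33, Txndc17 0.33), Tgfb3 (Col4a6 0.32, Net1 0.30, Smtn 0.29), Tgfbr1 (Trim27 0.31, Nbeal1 0.30, Fkbp1a 0.29) and Ltbp3 (Sulf1 0.29, Ogt 0.28, Dtx3 0.27). Among the members with counts in at least 60 cells, which leaves out Tgfb1, Tgfb2 and Ltbp2, the highest was 0.22 between Tgfb3 and Ltbp1. Likeness was computed over the 29, 28, 50 and 75 cells of the 4 mice, and correlations of this size in sparse counts are weak.

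Of the genes around the pathway, edgeR called 0 of 60 between the lines (10 at an unadjusted p under 0.05), where DESeq2 called 3 (Fst, Postn and Tgfb1i1, beside 4.0% of all genes) and limma 0. Between the Acta2 classes edgeR called 0 of 59 (9 unadjusted), DESeq2 8 (Ctgf, Dcn, Fst, Lrrc32, Mfap5, Mmp2, Nedd4l and Postn, beside 7.89% of all genes), and limma 1 (Dcn) or 0 by pseudocount. On all genes with a count DESeq2 called 6 of these, out of 62 tested, without Mfap5 and Mmp2. The counts of all genes called by limma and by this form of DESeq2 are given below, with the dependence on the processing. Among Acta2-lower cells edgeR called 0 of 58 (11 unadjusted), DESeq2 3 (Fst, Lrrc32 and Mmp2, beside 3.31% of all genes) and limma 0. On all genes with a count DESeq2 called 2 of these, out of 63 tested, without Mmp2. The genes that DESeq2 or limma called were named after their values were seen. Fst had 0 CPM in both Lgr5 mice, against 5.68 and 6.04 in the Lgr6 mice. Between the lines, in all kept cells and in Acta2-lower cells alike, Fst thus passed the filter on low counts only through the Lgr6 line. Its calls in both comparisons, by either form of DESeq2, are not read as a result. Among the genes that can release latent TGF-beta, Thbs1 (thrombospondin) was the most abundant, with 3142 and 2671 TPM in the Lgr5 mice, against 1762 and 1782 in the Lgr6 mice. It was lower in the Acta2-high cells of both Lgr6 mice, at 1232 and 558 TPM against 2383 and 3040 (log2 fold change -1.72, SE 0.237, edgeR adjusted p = 0.259 after Benjamini-Hochberg adjustment). Mmp2, a gelatinase, was also lower in Acta2-high cells, at 191 and 114 TPM against 432 and 413. Itgb1, a shared integrin chain, was higher in them, at 479 and 470 TPM against 186 and 185. In this list of 14 genes, 13 were in the table and 11 were tested between the lines, with a median log2 fold change of -0.29, beside -0.049 for all genes.

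Among the matrix anchors, Mfap4 had 146 and 150 TPM in the Lgr5 mice, against 435 and 489 in the Lgr6 mice. Mfap5 had 70.5 and 48.0 TPM in Acta2-high cells against 372 and 305 in the lower cells, while Eln, elastin, was near equal at 174 and 177 against 154 and 162. The median log2 fold change was -0.96 between the lines (10 genes tested) and -0.90 between the classes (9 tested), beside -0.049 and 0.016 for all genes. Of the 3 extracellular binders, Bgn was high in each mouse (1522 to 1942 TPM). Dcn, a proteoglycan that binds TGF-beta, had 24.1 and 42.8 TPM in Acta2-high cells against 1079 and 451 in the lower cells, and Fmod was close to 0. Of the 8 accessory receptors, Eng had 104 and 144 TPM in the Lgr5 mice, against 59.7 and 76.4 in the Lgr6 mice, Nrp1 27.2 to 118.5 over the 4 mice, and Bambi 21.8 to 49.7.

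The signal carriers were low. Smad3 had 34.9 and 14.6 TPM in the Lgr5 mice, against 49.2 and 46.4 in the Lgr6 mice, Smad4 between 4.84 and 29.7, and Smad2 between 4.60 and 15.5. Of the 11 intracellular inhibitors, Skil, Tgif1 and Ski were the most abundant, with means of 65.7, 47.3 and 46.3 TPM. Of 8 genes known as targets, Tgfbi had 1360 and 951 TPM in the Acta2-high cells against 469 and 508 in the lower cells (log2 fold change 1.53, SE 0.358, edgeR adjusted p = 0.603 after Benjamini-Hochberg adjustment). Tsc22d1 had 186 and 135 TPM in the Lgr5 mice against 783 and 603 in the Lgr6 mice, and Col1a1 was between 185 and 360. In the Lgr6 mice Col1a1 was lower in Acta2-high cells, at 225 and 300 TPM against 314 and 421 in the lower cells. The targets had a median log2 fold change of 1.36 between the classes, beside 0.016 for all genes, and -1.09 between the lines. Of the 8 targets, 5 were higher in mean TPM in the Acta2-high cells of both mice and 2 were lower. The shares of all genes tested were 29.5% and 25.9%. Log2 fold changes of the targets between the classes ran from -1.29 to 4.99. In the activin branch Fstl3 had between 44.0 and 194 TPM, Inhba between 9.07 and 23.8, and Acvr2a between 9.28 and 26.9.

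Promoter sequence is shown for the 2 members with an unadjusted p under 0.05 between the classes and for Ltbp1 (the first of its 2 entries), which was higher in the Acta2-high cells of both mice. The windows run from 250 bases before to 50 after the start of the gene in RefSeq (GRCm38.p6), 5' to 3' on the strand of the gene, and 8 of the 10 members had an entry (Tgfb3 and Tgfbr3 did not). CAGAC, the short SMAD motif, was searched on both strands and is in capitals as CAGAC or GTCTG.
Ltbp1 (chr17:75005279-75005578, plus strand): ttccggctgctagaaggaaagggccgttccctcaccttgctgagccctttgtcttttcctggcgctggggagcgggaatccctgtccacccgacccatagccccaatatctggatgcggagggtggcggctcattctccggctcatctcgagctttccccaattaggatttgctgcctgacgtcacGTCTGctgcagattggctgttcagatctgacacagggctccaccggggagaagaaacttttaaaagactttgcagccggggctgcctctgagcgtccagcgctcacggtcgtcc
Ltbp2 (chr12:84876442-84876741, minus strand): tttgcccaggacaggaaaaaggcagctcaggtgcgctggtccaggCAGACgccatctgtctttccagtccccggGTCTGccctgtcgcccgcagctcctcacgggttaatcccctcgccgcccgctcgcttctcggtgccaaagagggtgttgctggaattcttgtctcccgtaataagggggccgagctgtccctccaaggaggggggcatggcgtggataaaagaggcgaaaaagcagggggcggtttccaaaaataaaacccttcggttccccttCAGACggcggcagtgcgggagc
Tgfbr2 (chr9:116175314-116175613, minus strand): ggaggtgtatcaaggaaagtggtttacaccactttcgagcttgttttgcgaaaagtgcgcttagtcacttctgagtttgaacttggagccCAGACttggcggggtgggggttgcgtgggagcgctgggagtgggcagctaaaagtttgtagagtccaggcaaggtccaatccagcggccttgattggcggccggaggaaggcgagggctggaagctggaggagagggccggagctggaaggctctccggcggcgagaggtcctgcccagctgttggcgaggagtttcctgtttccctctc
The windows held 1, 3 and 1 matches, and 49.7% of all 27025 promoters held at least 1. The palindrome GTCTAGAC (0.211% of promoters) and the CArG box (1.57%) were in none of the 3 windows, and CACCTG, held by 5413 of the 27025 promoters, was in that of Ltbp2 once. A match is a description of the letters and not a site or a cause.

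The pool wells, 1 per mouse, held 353310, 204948, 66586 and 2203576 counts and were not tested. Ltbp1 had 193 and 0.373 TPM in the Lgr5 pools and 768 and 517 in the Lgr6 pools. Tgfb3 was at 0 in both Lgr5 pools and at 38.8 and 444 TPM in the Lgr6 pools, in which Acta2 had 11940 and 15210 TPM. Ltbp4 had 480 and 550.1 TPM in the Lgr5 pools and 48.1 and 103 in the Lgr6 pools. In these 4 wells the Lgr6 pools were higher in Acta2, Ltbp1, Tgfb3, Tgfb2 and Ltbp2 and lower in Ltbp4, Tgfbr1 and Tgfbr3. Tgfbr2 (712 and 0 TPM in the Lgr5 pools, 81.2 and 0 in the Lgr6 pools) and Ltbp3 overlapped, and Tgfb1 was at 0. Some values rest on few counts. Ltbp1 had 1 count in the pool of Lgr5 mouse 2. Tgfb3 had 4 and Ltbp4 had 7 in that of Lgr6 mouse 1. In the kept cells the lines overlapped in Ltbp4.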

How the data were processed

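Single cells of 2 Lgr5-line and 2 Lgr6-line mice were measured. Per the submitters' processing notes, reads were demultiplexed with bcl2fastq 2.17.1.14 and quantified with kallisto 0.43.0 on mm10. The authors deposited raw gene counts of every well. Their log2(TPM + 1) tables, deposited with and without the wells their filter removed, were turned back into TPM here. A table of scaled counts was not used.

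Sums of counts over the kept cells of a mouse, or of an Acta2 class in a mouse (3 or more cells in each class), were the samples. They were compared with edgeR 4.0.16 in R 4.3.3 (TMM, filterByExpr, glmQLFit, glmQLFTest, Benjamini-Hochberg adjusted p under 0.05), with the mouse as a block between classes. The SE given with an edgeR fit was derived from the test, as the absolute log2 fold change divided by the square root of its F statistic. The fits were tested on simulated data. Intervals of shares are exact Clopper-Pearson 95% intervals over the cells of a mouse or of a class in a mouse. Cells were also thinned to 99000 reads, which left out 19 cells. Levels and figures used Python 3.11.15, numpy 2.4.6, pandas 2.3.3, scipy 1.17.1 and matplotlib 3.10.9.

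Alternatives were DESeq2 1.42.0, limma 3.58.1 on mean TPM (pseudocounts 1 and 0.1), library size in place of TMM, no filter on low counts, each mouse left out, the mouse number as a block, Acta2 thresholds of 9 and 12, and cells without epithelial marks. DESeq2 was first run on all genes with a count. It was then set to the genes that pass the edgeR filter, so that 1 choice changes at a time, after the first results and an earlier DESeq2 count on these data had been seen. Both forms are reported. The filtered form of DESeq2, sums without Rn45s, sums of thinned cells and the threshold of 9 in the Lgr6 mice only were chosen after seeing the data.

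Named are the 10 members, the 3 most abundant genes of each pathway list and any called, and for members with counts in at least 60 cells the 3 genes with the highest within-mouse Spearman correlation. The members and lists were chosen with earlier results of these data known. An exon overlap of 1 member is not reported here.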

Additional observations from a re-analysis of the deposited data

Results flagged for a closer look

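Wells that the authors' filter removed were not part of any comparison, and in 4 cases a member's mean TPM in such wells of both Lgr5 mice stood above the kept cells of both. Only removed wells with a count in at least 2000 genes were described, 59 in Lgr5 mouse 1 and 54 in Lgr5 mouse 2, where 29 and 28 of 95 single wells each were kept. They were divided at a TPM of 1 of Pecam1 and of Ptprc, so a well below it can hold a few counts. The kept cells had 0.0386 and 0.776 TPM of Tgfb1 and 2.46 and 3.85 TPM of Ltbp2. In wells with Pecam1 at or above and Ptprc below this TPM (10 and 18 wells, of which 3 in Lgr5 mouse 1 had a Ptprc count), Tgfb1 had 1.94 and 1.43 TPM, with a mean over the 2 mice of 1.68, and a count in 4 and 3 wells. These values came from 7 and 8 counts, at 1.808 and 1.775 CPM. The kept cells had 0.101 and 3.258 CPM of Tgfb1, so on that scale the wells were not above the kept cells of both mice. In the same wells Ltbp2 had 4.78 and 12.6 TPM, with a mean of 8.70, and a count in 4 and 5 wells. In wells with Ptprc at or above and Pecam1 below it (9 in each mouse, of which 2 in Lgr5 mouse 1 had a Pecam1 count), Ltbp2 had 23.1 and 10.2 TPM, with a mean of 16.6, but a count in only 2 and 1 wells. In wells with both genes at or above it (31 and 23), Ltbp2 had 27.6 and 17.0 TPM, with a mean of 22.3, and a count in 23 and 13 wells. Tgfb1 in those wells was at 5.18 and 0.332 TPM, above the kept cells in Lgr5 mouse 1 only. No test was made.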

How the results depend on the processing

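Log2 fold changes of the 9 members tested were refitted under each alternative. Between the lines, 100 values kept their direction and side of the threshold, 25 changed sign and 1 passed the threshold (Ltbp2 with DESeq2). Between the Acta2 classes these were 121, 6 and 2, both Ltbp2 with DESeq2. With 1 mouse left out, where there is no test, 6 more values moved by over 1 SE and 3 of them changed sign. Among Acta2-lower cells they were 128 and 16. In fits with a test, each sign change was in a log2 fold change that did not pass the threshold in either fit. The cause was not tested. Scaling to library size in place of TMM moved the median of all genes by 0.0871, 0.0855 and 0.185.

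Counts of genes called (0 by edgeR between the lines, with 1312 at an unadjusted p under 0.05) became 564 with DESeq2, 963 with DESeq2 on all genes with a count, 408 without the filter, 38 and 16 with limma (pseudocounts 1 and 0.1), 7 in thinned cells and 0 to 34 with 1 mouse left out. The 34 were without Lgr6 mouse 1 and 7 without Lgr6 mouse 2. Between the classes the 2 calls became 943 with DESeq2, 949 with DESeq2 on all genes with a count, 41 and 10 with limma, 52 in thinned cells, 0 at an Acta2 threshold of 12 and 0 without epithelial-marked cells. At a threshold of 9 there were 38 in the 2 Lgr6 mice and 14 when both Lgr5 mice, which then had enough cells, entered too. Among Acta2-lower cells the 0 calls by edgeR (976 unadjusted) became 404 with DESeq2, 704 with DESeq2 on all genes with a count, 157 without the filter, 28 and 3 with limma, 4 in thinned cells and 6 to 74 with 1 mouse left out (25 and 6 without Lgr5 mouse 1 or 2, 27 and 74 without Lgr6 mouse 1 or 2). The single mouse left in a line was taken to have the spread of the other line. Between the classes a fit with 1 mouse has no test.

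The mouse numbers share only a number (correlation of deviations 0.0385 for all kept cells and 0.0440 for lower cells). With the replicate block the calls between the lines were 0 for all kept cells and 0 for lower cells, Tgfbr1 changed to 0.013 and Ltbp4 to -0.0085. Without the block, the 2 calls between the classes became 0.

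Between the lines, Tgfb3 changed sign to 0.038 with DESeq2, 0.022 with DESeq2 on all genes with a count and 0.26 without epithelial-marked cells. Tgfbr1, at -0.0013 in the edgeR fit, became 0.11 and 0.092 with the 2 forms of DESeq2, 0.087 with library size, 0.016 without the filter, 0.055 and 0.053 with limma, 0.018 without epithelial-marked cells and 0.42 in thinned cells. Tgfb2 became -0.89 and -0.99 with limma and -0.27 in thinned cells, and Ltbp4 -0.14 with either limma fit. With 1 mouse left out Tgfb2 ran from -1.69 to 2.74, Tgfb3 from -1.03 to 0.51, Tgfbr1 from -0.21 to 0.26 and Ltbp4 from -0.42 to 0.48. Tgfb2 was negative without Lgr5 mouse 2.

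Between the classes, Tgfbr1 became -0.48 and -0.51 with limma and -0.16 at a threshold of 12. Tgfb3 became -0.39 at 12. At 9 with all 4 mice Tgfb3 became -0.23, Tgfbr3 0.015 and Tgfbr2 -0.72. At 9 in the Lgr6 mice alone, a fit added after seeing the data, they were 0.16, -0.061 and -1.55, with no sign change. Without Lgr6 mouse 1 Tgfbr1 was -0.18, Tgfbr3 0.31 and Ltbp1 1.33, and without Lgr6 mouse 2 they were 2.58, -0.73 and -0.024. Tgfbr2 was -0.87 in thinned cells.

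Among Acta2-lower cells, Tgfb3 became 0.075 with library size, 0.15 without epithelial-marked cells and 0.11 at a threshold of 9. Tgfb2 became -0.39 and -0.50 with limma, and Tgfbr1 -0.17 and -0.19 with limma and -0.25 at 12. In thinned cells Ltbp1 was 0.25 and Ltbp4 0.053, and at 12 Ltbp2 was -2.17. With 1 mouse left out Tgfb2 ran from -3.65 to 3.35, Tgfb3 from -1.16 to 0.51, Ltbp1 from -0.71 to 0.34 and Ltbp4 from -0.66 to 0.14. The lowest Tgfb2 value was without Lgr5 mouse 2.

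Of 80 shares of cells with a count, 78 moved by less than their interval. Tgfb2 in Lgr6 mouse 2 went from 36.0% to 22.5% in thinned cells and 24.0% at a TPM of at least 1. With 2 mice a line, few cells per class and depths that differ between mice, small differences could not be detected.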
